A study of Mus musculus with 6 samples.

Results

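The annexins Anxa1 to Anxa8 and the galectins Lgals1 and Lgals3 were followed in TGFβ-treated primary mouse lung fibroblasts (LFs). The genes were chosen by symbol, so that 10 of the 55364 genes listed in the count tables were members. All 10 had counts in each of the 6 libraries and all passed the filter on low counts, Anxa8 through its wt libraries alone. Lgals1 and Anxa2 were higher in libraries labelled Tks5+/- than in wt, by 3.17-fold and 1.80-fold, and Anxa8 was 7.91-fold lower. The other 7 members were not called.

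Annexins are cytosolic proteins that bind acidic phospholipids when calcium rises, and they are known for membrane repair, vesicle traffic and, outside the cell, for steps of inflammation and clot dissolution. Several of them act in complexes with S100 proteins, small calcium-binding dimers. Galectins are lectins that bind β-galactosides on glycoproteins, are secreted without a signal peptide and link glycoproteins at the cell surface and in the extracellular matrix. In the lung both families are found in fibroblasts, macrophages and epithelium, and galectin-3 is also known as Mac-2, a surface antigen of macrophages.

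The series compared LFs of wt mice with LFs of Tks5+/- mice, to find which mRNA levels depend on Tks5, a scaffold protein of podosomes encoded by Sh3pxd2a. According to the methods of the study, LFs come from lungs of C57Bl6/J mice, 8 to 10 weeks old, digested with collagenase, and are used at passage 2 to 3. Tks5+/- mice carry 1 wild type copy of Sh3pxd2a and 1 copy (tm1b or tm1d) from which exon 11 was removed by a ubiquitously active Cre, so that the loss was not limited to fibroblasts, and the sample labels call these libraries a knockout. Both groups, 3 libraries each, were kept in serum-free medium with 10 ng/ml TGF-β1 for 24 h, and no untreated LFs were analysed here, so that every difference below is one between genotypes under TGFβ. The study took LFs from littermates and describes its samples as independent, but the labels do not tie a library to a mouse or culture, and the p-values measure the spread between these libraries.

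Libraries were made by Quant-Seq, which reads the end of each polyadenylated transcript, and held between 1344507 and 2369882 counts. Levels are given as counts scaled to library size (CPM) after TMM scaling, which equalises the bulk of the genes between libraries. A gene was called where edgeR's quasi-likelihood F test gave an adjusted p under 0.05 over the 10346 genes tested and the fold change was at least 1.2. Sh3pxd2a itself did not separate the groups, with 113 ± 16.5 (wt, SD, n = 3) and 138 ± 11.1 CPM (labelled Tks5+/-, SD, n = 3) and a log2 fold change of 0.29 (edgeR adjusted p = 0.249). By Q-RT-PCR the study reported less Tks5 mRNA in Tks5+/- LFs than in wt LFs, a fall that these reads did not show. The reads come from the transcript end and the deletion removed an internal exon. Whether transcripts of the mutant copy are still counted at their end was not tested, so this level cannot check the labels. Of the 8 fibroblast markers, 4 had a higher call and 0 a lower call in libraries labelled Tks5+/-. Among all genes 22.8% were called higher and 22.1% lower. Thy1 and Vim did not overlap between the groups, while Col3a1 and Pdgfra did and lost their calls with scaling by library totals. Dcn (-0.31) and Lum (-0.85) lay the other way and were not called. The summed level of the 8 markers was 3740 to 5070 CPM in wt and 5538 to 8605 CPM in libraries labelled Tks5+/-. Wt replicate 3 stood apart by its macrophage markers, which summed to 2047 CPM against 395 and 333 in wt replicates 1 and 2 and 140 to 152 in libraries labelled Tks5+/-.

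The promoters of the annexins that were called are shown because their mRNA levels differed in opposite directions. RefSeq promoter windows of GRCm38.p6, 300 bases long with 250 bases before the annotated start and 50 after it, were found for 7 of the 10 members, in 9 windows. None was found for Anxa3, Anxa6 and Lgals1. Both windows below are on the forward strand and are written 5′ to 3′, chr9:69453433-69453732 for Anxa2 and chr14:34085729-34086028 for Anxa8. Capitals mark matches to the letters of a TATA box (TATAAA), a GC box (GGGCGG), an AP-1 site (TGACTCA) or a CCAAT box (CCAAT), searched on both strands.
Anxa2: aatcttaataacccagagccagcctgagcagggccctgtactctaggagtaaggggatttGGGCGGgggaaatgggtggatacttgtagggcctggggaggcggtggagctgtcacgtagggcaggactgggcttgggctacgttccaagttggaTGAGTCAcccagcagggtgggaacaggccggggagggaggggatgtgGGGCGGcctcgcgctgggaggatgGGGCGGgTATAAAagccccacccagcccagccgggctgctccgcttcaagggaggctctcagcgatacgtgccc
Anxa8: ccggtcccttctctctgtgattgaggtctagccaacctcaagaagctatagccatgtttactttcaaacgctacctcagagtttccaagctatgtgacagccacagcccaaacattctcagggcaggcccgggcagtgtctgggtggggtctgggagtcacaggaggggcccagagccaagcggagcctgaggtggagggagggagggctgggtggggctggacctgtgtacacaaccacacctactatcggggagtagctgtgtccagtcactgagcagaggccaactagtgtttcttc
In the Anxa2 window the first letter of the TATA box lay 17 bases before the start, those of 3 GC boxes 24, 48 and 190 bases before it, and that of an AP-1 match 95 bases before it, which read TGAGTCA, the same site on the opposite strand. These matches did not overlap each other. The Anxa8 window held none of the 4 motifs. Over all 32851 mouse windows, a TATA box was found in 13.6%, a GC box in 35.7%, an AP-1 site in 5.2% and a CCAAT box in 37.4%. Of the 9 windows of members, 2 held a TATA box (Anxa1 and Anxa2), 5 a GC box, 1 an AP-1 site and 1 a CCAAT box (Lgals3).

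Of the 10 members, 3 were called, against 44.9% of the 10346 genes tested. Called higher were 2 members, against 22.8% of all genes, and called lower was 1, Anxa8, against 22.1%. The CPM of the groups did not overlap for 5 members, Anxa2, Anxa3, Anxa7, Anxa8 and Lgals1, against 53.8% of all genes. The median log2 fold change of the members was 0.18, and that of all genes tested -0.0457. Read against these shares of all genes, the counts of calls are no result about the members as a list, and the results are those of single genes. The plot of levels by library shows the members side by side.

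**Figure D1:**
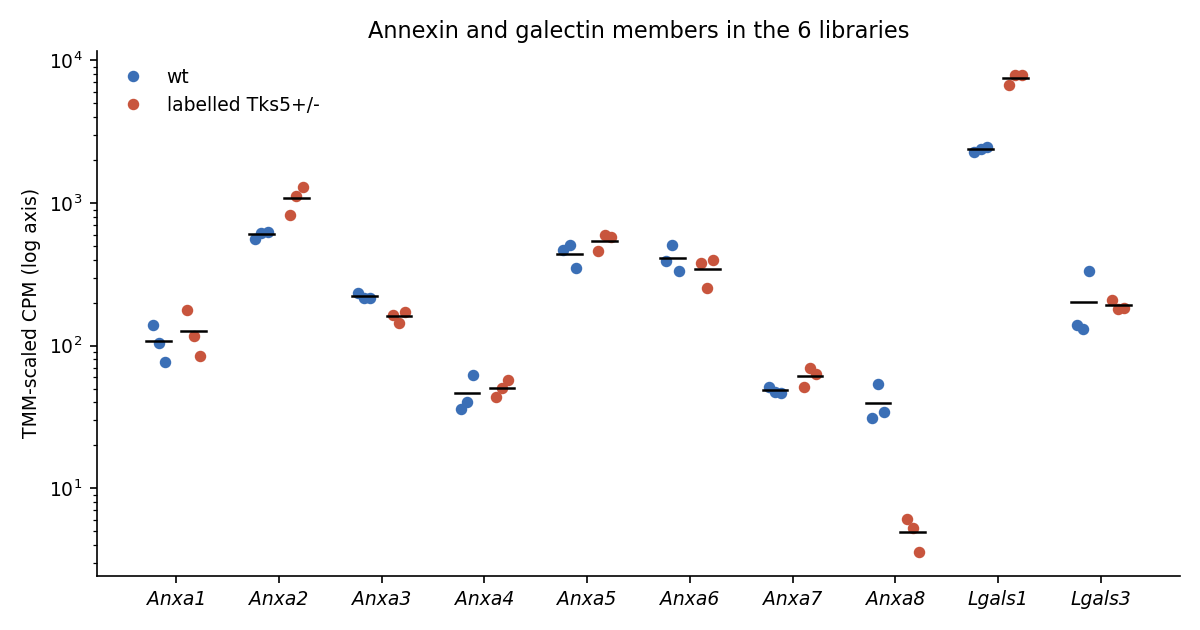
Level of each annexin and galectin member in TMM-scaled CPM on a log axis; points are the 3 wt libraries (blue) and the 3 libraries labelled Tks5+/- (red), and black lines are group means. Lgals1 and Anxa2 are higher and Anxa8 lower in all 3 libraries labelled Tks5+/- than in any wt library, while Lgals3 has 1 wt library (335 CPM) above the rest.

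Anxa8 (ENSMUSG00000021950, chromosome 14 of GRCm38, 34085981 to 34100571, forward strand) encodes a calcium-dependent phospholipid-binding protein known for its part in the late endosome. Wt replicates 1, 2 and 3 held 48, 100 and 92 counts of it, against 11, 9 and 7 in libraries labelled Tks5+/-. The levels were 30.9, 53.5 and 34.1 CPM in wt and 6.04, 5.27 and 3.58 CPM in libraries labelled Tks5+/-. The lowest wt library was thus above the highest library labelled Tks5+/-, and the latter rested on 7 to 11 counts each. The mean fell from 39.5 ± 12.2 CPM (SD, n = 3) to 4.96 ± 1.26 (SD, n = 3), which gave -2.98 on the log2 scale (standard error 0.34, 95% interval -3.69 to -2.28, edgeR adjusted p = 4.89e-07). Its level in wt is what admitted Anxa8 to the test, since it passed the filter on low counts through the wt libraries alone. It was also called lower with no filter on low counts (-3.00), a fit to the same counts that adds no separate support. The interval and adjusted p are to be read with that limit. The p of the exact two-sided permutation test was 0.1, the smallest that 3 libraries against 3 allow. A630023A22Rik, which overlaps the end of Anxa8 on the opposite strand, had 0 counts in the wt libraries and 1, 2 and 0 in those labelled Tks5+/-.

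Markers of some other cells were also lower in libraries labelled Tks5+/-, and those of others were not. The 5 mesothelial markers, each with a count in at least 1 library labelled Tks5+/-, summed to between 20.9 and 25.1 CPM in wt and between 3.58 and 12.1 CPM in libraries labelled Tks5+/-. Of these, Upk3b and Lrrn4 were lower without overlap, while Msln, Wt1 and Krt19 overlapped between the groups. The mean of Krt19 went the other way, from 1.44 CPM in wt to 2.01 CPM. The 5 endothelial markers summed to 83.0 to 106 CPM in wt and 19.3 to 26.1 CPM in libraries labelled Tks5+/-, in which Pecam1 had 0 counts. The 5 markers of smooth muscle and pericytes went the other way as a sum, from 301 to 338 CPM in wt to 440 to 570 CPM, which was mostly Cnn1 (called higher, log2 fold change 1.00), while Myh11, Des and Cspg4 were called lower. The 12 markers of alveolar and airway epithelium had overlapping sums, 26.8 to 49.7 against 31.2 to 62.0 CPM. Of these, Ager was called higher (1.82, edgeR adjusted p = 4.53e-05) and Krt18 lower, Foxj1, Epcam, Cdh1 and Krt8 were at 0 in libraries labelled Tks5+/-, and Sftpc, Sftpb, Sftpa1 and Scgb1a1 were at 0 in every library. Cspg4, at 4, 2 and 4 counts in libraries labelled Tks5+/-, and Krt18, at 0, 0 and 1, passed the filter on low counts through wt libraries alone. So did Des, at 17, 12 and 7 counts in libraries labelled Tks5+/-. In these bulk samples fewer cells of a type and less RNA per cell cannot be told apart, and the part of these cells in the level of Anxa8 was not tested.

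Anxa2 (ENSMUSG00000032231, chromosome 9, 69453620 to 69491795, forward strand) encodes the annexin that, with S100a10, binds tissue plasminogen activator and plasminogen at the cell surface. Its counts were 867, 1154 and 1697 in the wt libraries, in the order of their numbers, against 1510, 1908 and 2542 in libraries labelled Tks5+/-. In CPM these were 558, 618 and 629 in wt and 829, 1116 and 1301 in libraries labelled Tks5+/-. The groups did not overlap, and the 3 libraries labelled Tks5+/- were spread more widely than the wt libraries. The mean rose from 602 ± 38.2 CPM (SD, n = 3) to 1082 ± 238 (SD, n = 3), which gave 0.85 on the log2 scale (standard error 0.21, 95% interval 0.41 to 1.28, edgeR adjusted p = 0.00246, exact permutation p = 0.1). Anxa2 remained called with each of the 6 libraries left out in turn (0.73 to 1.06). It was not called when the libraries were scaled by their totals alone (0.41, edgeR adjusted p = 0.0794), a scaling under which the median of all genes was -0.465, or on the authors' normalized counts (0.22, limma adjusted p = 0.379).

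Ratios of counts within a library do not depend on how libraries are scaled, and these ratios were chosen after the values were seen. Reads of Anxa2 made up 29.2%, 29.5% and 35.9% of the reads of the 8 annexins of wt LFs, against 39.2%, 47.3% and 48.8% in libraries labelled Tks5+/-. The share was higher in every library labelled Tks5+/-. Relative to Anxa5, Anxa2 had 1.2 to 1.79 times the counts in wt and 1.81 to 2.24 times in libraries labelled Tks5+/-, so that the groups just missed each other. Relative to Anxa6 the ratio was 1.22 to 1.88 in wt and 2.17 to 4.38 in libraries labelled Tks5+/-. The ratio of Anxa8 to Anxa3 was 0.132 to 0.248 in wt and 0.0207 to 0.0368 in libraries labelled Tks5+/-. These 3 ratios, and the share of Anxa2, separated the groups with no scaling between libraries.

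Anxa3 (ENSMUSG00000029484, chromosome 5, 96793339 to 96845966, forward strand) encodes an annexin first described as a lipocortin, an inhibitor of phospholipase. It had 363, 404 and 581 counts in wt and 299, 248 and 338 in libraries labelled Tks5+/-. The levels were 234, 216 and 215 CPM in wt and 164, 145 and 173 CPM in libraries labelled Tks5+/-, so that the groups did not overlap. The means of 222 ± 10.3 CPM (SD, n = 3) and 161 ± 14.2 (SD, n = 3) gave a log2 fold change of -0.46 (95% interval -0.87 to -0.06) that just missed the threshold (edgeR adjusted p = 0.0579). It was called lower under 7 alternatives, with values from -0.94 with correction for GC content and transcript length to -0.50 with upper-quartile scaling.

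The remaining 5 annexins were not called. Anxa1 (chromosome 19, 20373428 to 20390944), whose protein dampens inflammation through formyl peptide receptors, was at 140, 105 and 76.4 CPM in wt and 179, 116 and 84.4 CPM in libraries labelled Tks5+/-. The groups overlapped, with means of 107 ± 31.7 (SD, n = 3) and 127 ± 48.3 (SD, n = 3), a log2 fold change of 0.25 and edgeR adjusted p = 0.457. Anxa4 (chromosome 6, 86736840 to 86793584), an annexin of secretory epithelium, was at 36.0, 40.1 and 62.7 CPM against 43.4, 50.3 and 57.3 CPM. Its groups overlapped too (log2 fold change 0.10, edgeR adjusted p = 0.75), and Gm44036, a noncoding gene on the opposite strand that overlaps its end, had 22 to 56 counts a library, which cannot be told apart from those of Anxa4 if strand was not kept.

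Anxa5 (chromosome 3, 36448923 to 36475894), the annexin used as a probe of exposed phosphatidylserine, was at 465, 506 and 352 CPM in wt and 457, 600 and 580 CPM in libraries labelled Tks5+/-. Means were 441 ± 79.9 (SD, n = 3) and 546 ± 77.3 (SD, n = 3), and the log2 fold change was 0.31 (95% interval -0.13 to 0.74, edgeR adjusted p = 0.24). Anxa6 (chromosome 11, 54979108 to 55033445), a large annexin with a duplicated core that acts in membrane repair and cholesterol traffic, was at 395, 505 and 335 CPM against 382, 255 and 401 CPM. Its groups overlapped, with a log2 fold change of -0.25 (95% interval -0.71 to 0.21, edgeR adjusted p = 0.375), and it was called lower by library totals (-0.66, edgeR adjusted p = 0.0188) and with limma on the normalized counts of the authors (-0.75, limma adjusted p = 0.0121). Anxa7 (chromosome 14, 20455260 to 20480133), known as synexin and tied to exocytosis, was at 51.5, 47.1 and 46.7 CPM against 51.6, 69.6 and 63.5 CPM. The groups touched without overlapping, and the log2 fold change was 0.35 (95% interval -0.10 to 0.79, edgeR adjusted p = 0.197). The values of Anxa1, Anxa4, Anxa5 and Anxa7 turned negative with scaling by library totals, so that no direction can be given for them.

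**Figure D2:**
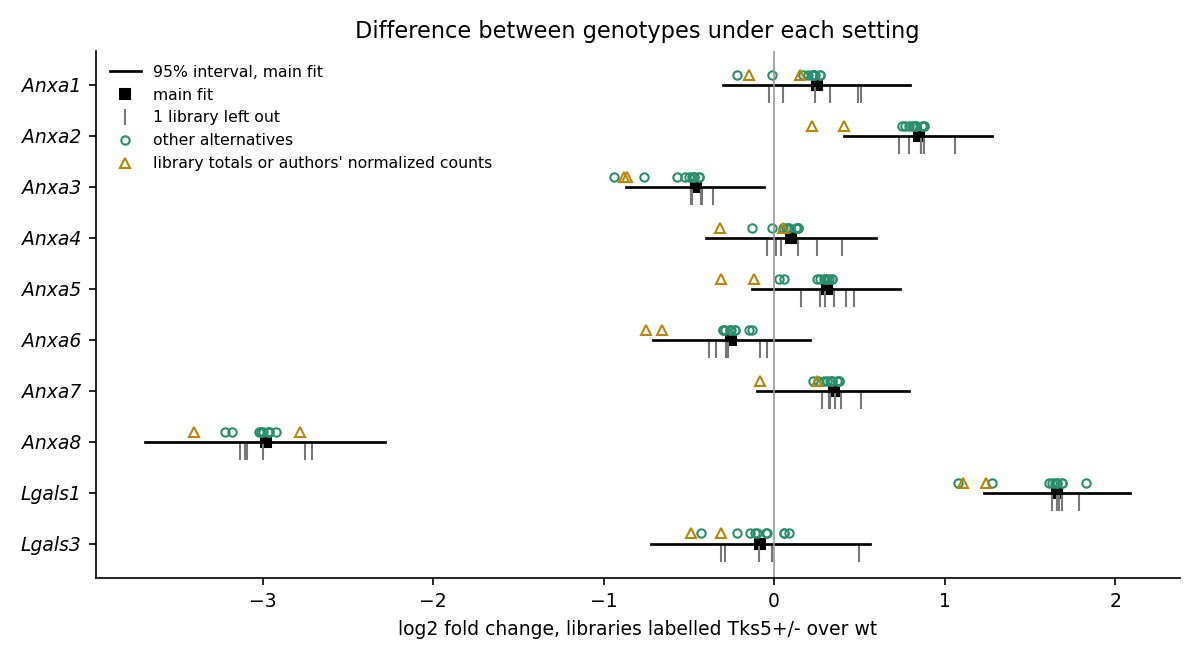
Log2 fold change of each member, libraries labelled Tks5+/- over wt, with values above 0 higher in libraries labelled Tks5+/-. Squares and lines are the edgeR values with their 95% intervals, ticks the values with 1 library left out, and open symbols the other alternatives; Anxa8 stays between -3.40 and -2.71 and Lgals1 between 1.08 and 1.83, while Anxa1, Anxa4, Anxa5, Anxa7 and Lgals3 have values on both sides of 0.

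Lgals1 (ENSMUSG00000068220, chromosome 15, 78926725 to 78930465, forward strand) encodes galectin-1, a dimer that binds β-galactosides on laminin, fibronectin and integrins. It had 3513, 4474 and 6670 counts in wt and 12265, 13512 and 15533 in libraries labelled Tks5+/-. The levels were 2261, 2394 and 2473 CPM in wt and 6730, 7907 and 7949 CPM in libraries labelled Tks5+/-. The groups were far apart relative to their spread, with means of 2376 ± 107 (SD, n = 3) and 7529 ± 692 (SD, n = 3). The log2 fold change was 1.66 (standard error 0.21, 95% interval 1.23 to 2.09, edgeR adjusted p = 1.56e-06, exact permutation p = 0.1). As a share of all counts, which is scaling by library totals alone, Lgals1 took up 0.261%, 0.272% and 0.281% in wt and 0.62%, 0.64% and 0.667% in libraries labelled Tks5+/-.

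Lgals1 was called higher under all 18 alternatives, with correction for transcript length giving the smallest value (1.08, edgeR adjusted p = 0.000128). Its transcript is 800 bases long, the shortest of the members. On the authors' normalized counts Lgals1 had the same value, 13756, in all 3 libraries labelled Tks5+/-, so that the spread in that fit comes from the wt libraries alone. The ratio of Lgals1 to each of the 8 fibroblast markers was higher in libraries labelled Tks5+/- with no overlap for 5 markers, Col1a1, Col1a2, Pdgfra, Dcn and Lum, and overlapped between the groups for Col3a1, Thy1 and Vim. To Dcn, the gene of decorin, it was 5.56 to 6.72 in wt and 20.8 to 25.5 in libraries labelled Tks5+/-, and to Vim, the gene of vimentin, 2.93 to 3.87 against 3.33 to 5.55. The summed fibroblast markers given above were also higher in libraries labelled Tks5+/-, and their part in the level of Lgals1 was not tested.

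Lgals3 (ENSMUSG00000050335, chromosome 14, 47367751 to 47386160, forward strand) encodes galectin-3, a galectin with a long tail through which it forms oligomers. It had 216, 245 and 903 counts in wt and 383, 311 and 360 in libraries labelled Tks5+/-. In CPM these were 139, 131 and 335 in wt and 210, 182 and 184 in libraries labelled Tks5+/-. The libraries labelled Tks5+/- lay between wt replicates 1 and 2, which were lower, and wt replicate 3, which was highest. Means were 202 ± 115 (SD, n = 3) and 192 ± 15.7 (SD, n = 3), and the log2 fold change was -0.08 (standard error 0.30, 95% interval -0.72 to 0.56, edgeR adjusted p = 0.852, exact permutation p = 1.0).

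Without wt replicate 3 the log2 fold change of Lgals3 was 0.50 (edgeR adjusted p = 0.0818) and did not pass the threshold. All 15 macrophage markers had counts, and wt replicate 3 held the highest summed level, as given above. Of the 11 tested, 0 were called higher and 5 lower, with a median log2 fold change of -2.32. Among all genes 22.8% were called higher and 22.1% lower. Adgre1, Cd68, Itgax and Laptm5, among the lower calls, passed the filter on low counts through wt libraries alone. In libraries labelled Tks5+/- 2 of the 15, Adgre1 and Ptprc, were at 0 in every library. Lyz2 kept 139, 157 and 207 counts there, against 298, 337 and 3502 in wt. Csf1r kept 24, 31 and 14, against 54, 40 and 116 in wt, and was called lower (-1.39). C1qc had 10, 11 and 7 counts there, against 3, 3 and 59 in wt. The part of macrophages in the Lgals3 level of wt replicate 3 was not tested. The ratio of Lgals1 to Lgals3 counts was 16.3, 18.3 and 7.39 in wt and 32.0, 43.4 and 43.1 in libraries labelled Tks5+/-, so that the groups stayed apart with or without wt replicate 3.

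**Figure D3:**
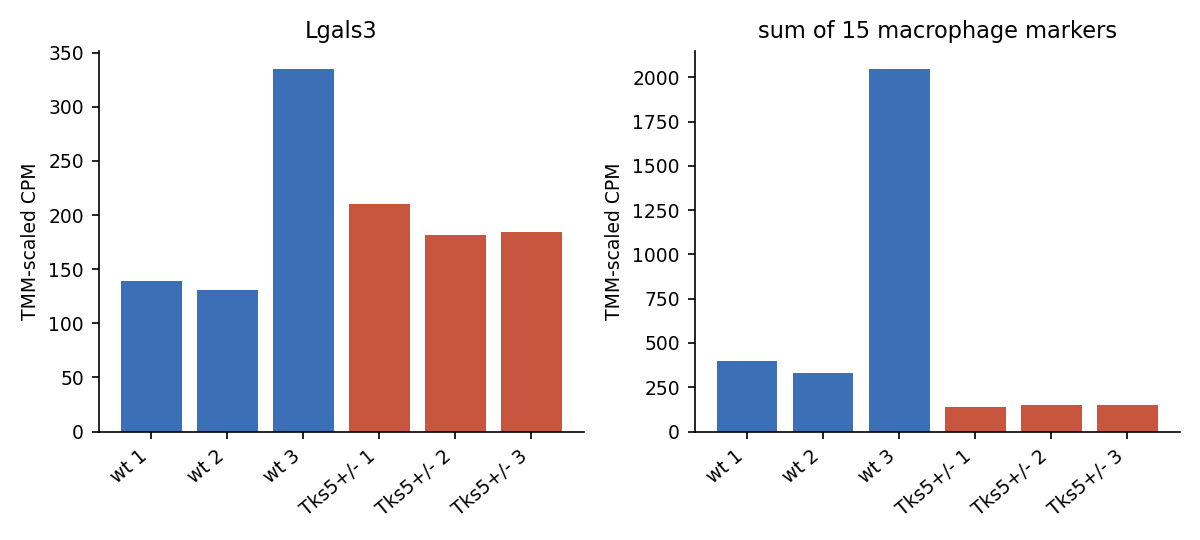
Level of Lgals3 (left) and the sum of 15 macrophage markers (right) in TMM-scaled CPM, 1 bar for each library, wt in blue and labelled Tks5+/- in red. Wt replicate 3 is highest in both, at 335 and 2047 CPM, while the libraries labelled Tks5+/- are at 182 to 210 and 140 to 152 CPM.

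Few other members of either family were measurable. Of the other annexins, Anxa10, Anxa11 and Anxa13 were listed at 0 in every library. Reads were counted on UTR regions, so a count of 0 does not show that an mRNA was absent. Anxa9 was called lower, from 45.6 ± 5.13 CPM (SD, n = 3) to 26.5 ± 7.81 (SD, n = 3) (log2 fold change -0.78, edgeR adjusted p = 0.016). Anxa9 was called in 4 of the 6 fits with 1 library left out, and lost its call without wt replicate 3 (-0.70, edgeR adjusted p = 0.0579) or without Tks5+/- replicate 2 (-0.53, edgeR adjusted p = 0.11). Of 7 other galectins listed, 4 were tested, with a median log2 fold change of -0.17. Lgals9, a galectin with a pair of carbohydrate-binding domains known for acting on T cells, was called lower, at 41.8, 55.1 and 28.2 CPM in wt and 19.8, 7.61 and 14.8 CPM in libraries labelled Tks5+/- (log2 fold change -1.54, edgeR adjusted p = 0.000502). Lgals2, Lgals8 and Lgalsl were not called.

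The S100 proteins that bind annexins had 3 members called higher and 0 lower of 4 tested, with a median log2 fold change of 0.82, against 22.8% called higher and 22.1% called lower among all genes. S100a10, the partner of annexin A2, was at 127, 127 and 145 CPM in wt and 279, 322 and 249 CPM in libraries labelled Tks5+/-, with no overlap (log2 fold change 1.09, edgeR adjusted p = 0.000143). S100a6, a partner of several annexins, had 0.93 (edgeR adjusted p = 0.00162), and S100a11, the partner of annexin A1, had 0.72 (edgeR adjusted p = 0.00655). S100a4 was not called (0.33, edgeR adjusted p = 0.25). With correction for transcript length none of the 4 was called, at 0.47 for S100a10 (edgeR adjusted p = 0.0581), 0.34 for S100a6, 0.01 for S100a11 and -0.41 for S100a4. On the authors' normalized counts S100a6 (-0.58) and S100a4 (-0.99) were called lower by limma.

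Within a library, Anxa2 had 4.35 to 4.87 times the counts of S100a10 in wt and 2.97 to 5.22 times in libraries labelled Tks5+/-, so that this ratio overlapped between the groups. The ratio of Anxa2 to S100a11 overlapped as well, at 1.96 to 2.67 in wt and 2.06 to 3.18 in libraries labelled Tks5+/-.

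Partners of annexins in membrane repair and the calcium response went both ways, with 3 called higher and 5 lower of 11 tested and a median log2 fold change of -0.37, where 22.8% of all genes were called higher and 22.1% lower. Ahnak, a giant scaffold that annexin A2 and S100a10 hold at the plasma membrane, fell from 660 ± 130 CPM (SD, n = 3) to 208 ± 43.9 (SD, n = 3), with -1.66 (edgeR adjusted p = 3.77e-06) and -0.70 with correction for transcript length (edgeR adjusted p = 0.00926). Sri, which encodes sorcin, a calcium sensor that binds annexin A7, rose by 1.2 on the log2 scale (edgeR adjusted p = 7.57e-05). Pdcd6, which encodes the calcium sensor ALG-2 that binds annexins A7 and A11, rose by 1.08 on the log2 scale (edgeR adjusted p = 0.000375). The other calls, named after their values were seen, were Chmp4b higher and the calpain genes Capn1, Capn2 and Capns1 and Myof lower. With correction for transcript length Chmp4b (0.30, edgeR adjusted p = 0.218) and Myof (-0.13, edgeR adjusted p = 0.668) were not called. Of the 5 lower calls, 3 were left without wt replicate 2, without Tks5+/- replicate 2 and without Tks5+/- replicate 3.

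Of the genes of the extracellular annexin A1 and A2 system, 3 were tested and 0 called, beside 44.9% called among all genes. Their median log2 fold change was 0.25, and with so few genes nothing is read from the count. Plat, the gene of tissue plasminogen activator, was at 5.26 ± 0.718 CPM (SD, n = 3) in wt and 10.0 ± 4.2 (SD, n = 3) in libraries labelled Tks5+/-, with 0.90 (edgeR adjusted p = 0.0871). Plaur and Pla2g4a had 0.25 and 0.14 and were not called (edgeR adjusted p = 0.373 and 0.774). Fpr3 and Plg were listed at 0 in all libraries.

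Genes of galectin ligands and of the N-glycan branching that makes galectin-binding sites had 1 called higher and 6 lower of 12 tested, with a median log2 fold change of -0.80, beside 44.9% called and 22.1% called lower among all genes. With so few genes these counts are given as a description, and nothing is read from them about the list. Lgals3bp, a secreted glycoprotein that binds galectin-3, was at 74.0, 101 and 70.8 CPM in wt and 17.6, 11.1 and 12.3 CPM in libraries labelled Tks5+/-. The groups did not overlap, and the log2 fold change was -2.58 (standard error 0.26, edgeR adjusted p = 1.18e-07). Fn1, the gene of fibronectin, had -1.55 (edgeR adjusted p = 3.56e-06), which was -0.97 with correction for transcript length, and Lamp1, a glycoprotein of lysosomes, had -1.43 (edgeR adjusted p = 1.63e-05). Among the N-acetylglucosaminyltransferases, Mgat1 (-0.73) and Mgat5 (-1.31) were called lower and Mgat2 (1.3) higher, and these, with Trim16 (-2.20, at 1.76 to 4.94 CPM in libraries labelled Tks5+/-), were named after their values were seen. Trim16 passed the filter on low counts through its wt libraries alone. The same holds for Mgat5, which had 17, 11 and 11 counts in libraries labelled Tks5+/-. Mgat5 lost its call with correction for transcript length (-0.73, edgeR adjusted p = 0.0935). The ratio of Lgals1 to Lgals3bp counts was 23.7 to 34.9 in wt and 383 to 711 in libraries labelled Tks5+/-.

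**Figure D4:**
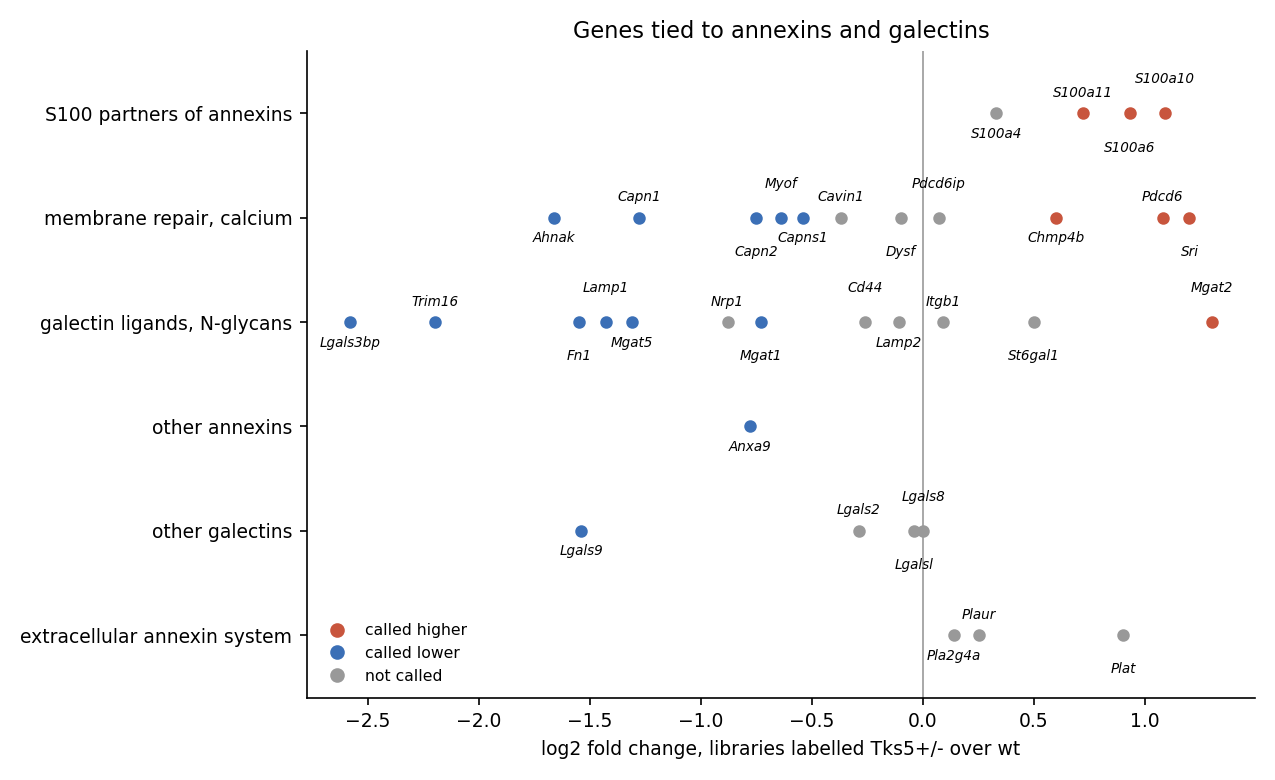
Log2 fold change, libraries labelled Tks5+/- over wt, of the tested genes in 6 lists tied to annexins and galectins, with 1 point for each gene coloured by its edgeR call. The S100 partners lie at 0.33 to 1.09, the repair partners from -1.66 to 1.2 and the galectin ligands and N-glycan enzymes from -2.58 to 1.3.

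The genes whose profiles were most like those of Anxa8 and Lgals1 were found by the root mean square difference of their centred log2 CPM over the 6 libraries, among 10023 genes with at least 10 counts on average. Nearest to Anxa8 were Slfn5 (0.0952), Gstm1 (0.199) and Lgals3bp (0.233). Slfn5 was at 17.4, 31.6 and 16.7 CPM in wt and 3.29, 2.34 and 1.54 CPM in libraries labelled Tks5+/-, with its highest level in wt replicate 2 as for Anxa8. Slfn5 too passed the filter on low counts through its wt libraries alone. Nearest to Lgals1 were Sike1 (0.0448), Atp6v0e (0.0618) and Sin3b (0.0745). Sike1 was at 23.8, 25.1 and 26.3 CPM in wt and 76.3, 93.0 and 86.5 CPM in libraries labelled Tks5+/-. All points of a profile share the same 6 libraries, and the likeness is given as a description.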

How the data were processed

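The authors used Trim Galore for trimming and HISAT2 and Bowtie2 for alignment to GRCm38, and counted reads on UTR regions with metaseqR2. They deposited raw counts per gene and normalized counts, made with EDASeq and rounded to whole numbers by the authors, which were treated here as a score and sum to 2062822 in every library. Whether counting kept to 1 strand is not given in the sources used here.

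Raw counts of 3 wt and 3 Tks5+/- libraries were tested in edgeR 4.0.16 under R 4.3.3 (genes kept by filterByExpr, TMM scaling, robust quasi-likelihood fit), with Benjamini-Hochberg adjustment over all genes tested. The common dispersion was 0.0429. Of the genes listed, 55104 were matched to symbols. Intervals and standard errors come from the fit. A count of 0 allows up to 3 counts, and intervals of single counts were not used.

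The members and lists were chosen with earlier results of these data known. All members were named, with the 3 genes of smallest adjusted p from each list, genes tied to a single member, and the 3 nearest profiles of the annexin and the galectin of smallest adjusted p.

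Alternatives were DESeq2 1.42.0, limma-voom (limma 3.58.1), RLE, upper-quartile and library-total scaling, limma on log2(normalized count + 1), no filter, at least 10 counts in every library, loess corrections for GC content and transcript length (span 0.5, prior count 2), fits with each library removed, and a block for the replicate number. Promoter windows are from RefSeq. Tables and plots were made with pandas 2.3.3, numpy 2.4.6, scipy 1.17.1 and matplotlib 3.10.9.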

Additional observations from a re-analysis of the deposited data

How the results depend on the processing

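Of 179 values of the members under the alternatives, 153 kept their direction and side of the threshold, 2 fell below it, 9 passed it and 15 changed sign. The number of members called was 3 or 4 under every alternative, and 4642 genes of all those tested were called by the main test against 3705 to 5306 under the alternatives. Scaling by library totals moved the median of all genes from -0.0457 to -0.465 and gave negative values for Anxa1 (-0.15), Anxa4 (-0.32), Anxa5 (-0.12) and Anxa7 (-0.08). On the authors' normalized counts Anxa5 was at -0.31. With correction for transcript length Anxa1 was at -0.01, and with GC content added Anxa1 was at -0.22 and Anxa4 at -0.13, while GC content alone gave -0.01 for Anxa4. Lgals3 turned positive with limma-voom (0.06) and with GC correction (0.09). With 1 library left out, Anxa1 ran from -0.03 to 0.51, Anxa4 from -0.04 to 0.40 and Lgals3 from -0.31 to 0.50. Libraries of the same replicate number correlated at -0.001, -0.064 and 0.082 in their deviations from the group means. These values cannot tell whether libraries of the same number shared a litter or a culture. With the replicate block, 3 members and 4668 genes were called and Lgals3 was at 0.06. Calls lost by Anxa2 and gained by Anxa3 and Anxa6 under other scalings are given above, and the cause was not tested. Anxa8, at 7 to 11 counts in the libraries labelled Tks5+/-, was not tested with at least 10 counts in every library, and its fold change is set by few reads.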
